A study of Homo sapiens with 30 samples.

Results

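The genes described here are 137 of the 27630 annotated genes in the count table whose RNA was counted in the nuclear fraction of HEK293FT cells and hardly at all in the cytosol. A gene was taken if it had at least 30 read counts in both nuclear libraries and at most 3 in both cytosolic libraries. It also needed an exonic length of at least 300 bases, a place on 1 autosome, and a symbol outside the classes named for long noncoding RNAs, small RNAs, antisense transcripts and several large families. By the RefSeq annotation 117 of the 137 were protein coding, 11 were pseudogenes and 9 were long noncoding RNAs, so the protein type that the symbols imply held for 117. The nuclear and cytosolic counts chose the genes and are given as a description only, and the lamina libraries were not read in the choice.

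HEK293FT is a human embryonic kidney cell line, and the 8 RNA libraries fell into 4 groups of 2: a nuclear fraction, a cytosolic fraction, a native lamina preparation and a paraformaldehyde-fixed (PFA) lamina preparation. All cells were asynchronous and had received, by lipid transfection, a construct that joins the peroxidase APEX2 to lamin B1, so the fractions carried it too. The RNA came from Trizol extraction and was depleted of ribosomal RNA. The labels name no library without the fusion and do not say whether the 2 libraries of a group came from separate cultures, so p-values measure only the spread between these libraries. Domains of DNA at the lamina are from a different line, HCT116, a colorectal carcinoma, in G1, S and G2.

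In a human cell, messenger RNA is made as a longer precursor, spliced, and exported through nuclear pores, whereas some long noncoding RNAs and unspliced or unfinished transcripts stay inside. The nuclear lamina is a mesh of lamins under the inner nuclear membrane, and the chromatin that touches it is mostly little transcribed. APEX2 tags molecules within a short distance of the fusion protein, and RNA recovered with them is read as RNA near the lamina.

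Total counts ran from 2321291 to 8557777 per library, and the smallest library was PFA lamina replicate 2. LMNB1, the gene of the transfected fusion, stood at 26168 to 96237 CPM (counts scaled to library size after TMM, the trimmed mean scaling of edgeR) in the 4 lamina libraries and at 3231 to 6382 CPM in the fractions. MALAT1, NEAT1 and KCNQ1OT1, RNAs known to stay in the nucleus, were all higher in both nuclear than in both cytosolic libraries, and the fourth listed marker, MEG3, had at most 1 count in any library. In each library 7 to 9 of 9 genes listed for the kidney and neuronal features of HEK293 cells had more than 3 counts. Of 7 blood cell genes 1 to 3 did, their summed level was 1.66 to 10.1 CPM, and PTPRC, CD3E and HBB were at 0 in all 8 libraries.

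Of the 137 genes, 40 lie wholly inside a larger gene. Promoter sequences, in windows of 300 bases around the start, are shown for 2 such genes and the genes that enclose them, because their lamina values are set side by side in the results. They come from RefSeq on GRCh38.p14, read 5′ to 3′ on each gene's own strand, with every CG dinucleotide in capitals. ACTL10, an actin-like gene, lies inside NECAB3, which codes for a calcium-binding protein. The promoter window of ACTL10 is chr20:33666693-33666992 (plus strand) and that of NECAB3 is chr20:33674379-33674678 (minus strand). ECM2, an extracellular matrix gene, lies inside CENPP, which codes for a centromere protein. The promoter window of ECM2 is chr9:92535941-92536240 (minus strand) and that of CENPP is chr9:92325218-92325517 (plus strand).
ACTL10: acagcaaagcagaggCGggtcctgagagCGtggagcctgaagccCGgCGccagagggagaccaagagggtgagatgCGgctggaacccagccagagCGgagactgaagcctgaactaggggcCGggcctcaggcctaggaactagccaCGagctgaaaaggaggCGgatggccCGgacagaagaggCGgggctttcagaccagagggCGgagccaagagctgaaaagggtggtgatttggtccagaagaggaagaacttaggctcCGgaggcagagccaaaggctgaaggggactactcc
NECAB3: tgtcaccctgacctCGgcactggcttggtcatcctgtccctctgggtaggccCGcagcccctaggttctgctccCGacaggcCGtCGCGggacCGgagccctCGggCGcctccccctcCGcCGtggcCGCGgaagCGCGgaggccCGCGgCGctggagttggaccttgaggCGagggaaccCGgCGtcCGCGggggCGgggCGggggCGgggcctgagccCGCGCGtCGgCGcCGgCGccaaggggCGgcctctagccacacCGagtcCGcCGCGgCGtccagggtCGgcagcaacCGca
ECM2: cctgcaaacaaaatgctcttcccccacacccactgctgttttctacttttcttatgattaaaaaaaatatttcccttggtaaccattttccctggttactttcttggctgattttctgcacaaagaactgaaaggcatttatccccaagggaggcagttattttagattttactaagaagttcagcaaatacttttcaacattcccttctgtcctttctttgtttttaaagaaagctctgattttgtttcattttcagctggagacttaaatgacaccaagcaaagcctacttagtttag
CENPP: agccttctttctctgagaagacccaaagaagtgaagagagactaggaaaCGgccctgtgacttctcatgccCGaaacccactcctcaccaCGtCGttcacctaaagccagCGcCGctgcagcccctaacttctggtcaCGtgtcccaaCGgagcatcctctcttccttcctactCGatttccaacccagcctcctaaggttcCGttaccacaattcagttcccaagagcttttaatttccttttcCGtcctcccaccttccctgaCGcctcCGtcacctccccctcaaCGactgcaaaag
The ACTL10 window held 13 CG and the NECAB3 window 41, while the ECM2 window held 0 and the CENPP window 14. CG reads the same on both strands, and the median over all 27305 RefSeq promoter windows of this length was 14. Of the 137 genes 89 had a window in the table, fewer than 80%, so a comparison of CG content over the set is void and is not given.

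Summed over the 137 genes, levels were highest in the nuclear fraction, well below that at the native lamina, and far apart in the 2 PFA libraries. The nuclear libraries held 8745 and 7837 counts of the set and the cytosolic ones 175 and 116. Native lamina libraries held 2203 and 1845, and PFA lamina libraries 262 and 1462. As a share of all counts the nuclear libraries gave 0.134% (95% Wilson interval 0.131 to 0.137) and 0.117% (0.114 to 0.119). Native lamina libraries gave 0.0257% (0.0247 to 0.0268) and 0.0308% (0.0294 to 0.0322). For the PFA lamina, replicate 1 gave 0.00447% (0.00396 to 0.00505) and replicate 2 gave 0.0630% (0.0598 to 0.0663). PFA replicate 1 thus lay near the cytosolic shares of 0.00240% (0.00207 to 0.00279) and 0.00200% (0.00167 to 0.00240), and PFA replicate 2 lay between the native lamina and the nuclear fraction. Intervals cover counting error only, since the reads carry no molecular identifiers and may repeat a molecule.

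**Figure D1:**
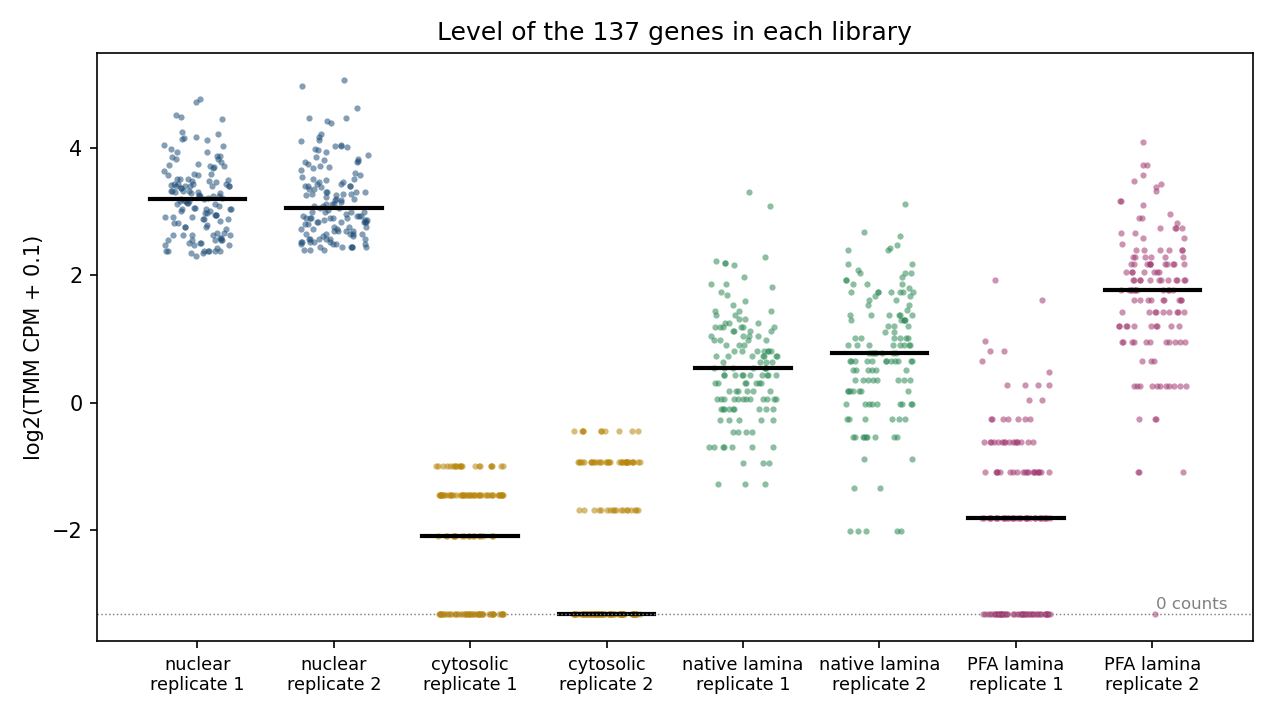
Each point is 1 of the 137 genes in 1 of the 8 libraries. The y axis is log2 of the TMM-scaled CPM plus 0.1, black bars are medians, and the dotted line marks 0 counts. The native lamina libraries lie between the fractions, while PFA lamina replicate 1 lies near the cytosolic libraries, with 48 genes at 0, and replicate 2 has a median above those of both native libraries.

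On the CPM scale the set summed to 1361 and 1346 in the nuclear libraries and to 229 and 272 at the native lamina, which was 18.5% ± 2.24 (SD, n = 2) of the nuclear mean. At the PFA lamina it summed to 48.4 and 538, which was 3.58% and 39.7% of the nuclear mean, so the mean of 21.7% ± 25.6 (SD, n = 2) describes neither library. The cytosolic sum was 1.77% ± 0.0591 (SD, n = 2), a value the choice of genes fixed. The median gene stood at 16.6% of its nuclear level at the native lamina and at 19.9% at the PFA lamina. Among the 10885 genes with an eligible symbol and at least 30 counts in both nuclear libraries, the medians were 103% and 104%. The set was chosen for high nuclear and low cytosolic counts, and those 10885 genes were not, so the gap is a description. Bulk libraries cannot tell apart fewer cells with a transcript and less of it per cell.

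The landmark RNAs of the nucleus differed among themselves in the same measure. KCNQ1OT1, a long unspliced antisense RNA, reached 12.9% and 18.1% of its nuclear level in the native libraries, close to the 16.9% and 20.1% of the set. NEAT1, the scaffold of paraspeckles, reached 21.6% and 32.5%, and MALAT1, an RNA of nuclear speckles, 39.7% and 89.1%. In PFA replicate 1 these 3 RNAs stood at 0.969%, 3.06% and 4.33%, and in PFA replicate 2 at 26.4%, 21.4% and 22.4%. The landmarks thus split between the PFA libraries in the direction of the set, with a summed level of 712 CPM in replicate 1 and 4106 CPM in replicate 2. GAPDH, ACTB, EEF1A1 and RPLP0, abundant cytosolic messengers, summed to 2890 and 1729 CPM in the same libraries. The part of nuclear and cytosolic RNA content in the values of the set was not tested.

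Detection in raw counts placed PFA replicate 2 below both native libraries, unlike the summed CPM, where it was above both. More than 3 counts were seen for 134 and 128 of the 137 genes in the native libraries, 126 of them (92.0%) in both. The background was 96.6% of the 16504 genes tested. At the PFA lamina 20 genes passed in replicate 1 and 119 in replicate 2, and 18 (13.1%) passed in both, beside 89.5% of the genes tested. PFA replicate 2 had the fewest counts in all. Thinned to that depth, the expected number of genes above 3 counts was 68.3 and 80.8 at the native lamina and 5.25 in PFA replicate 1. In all 4 lamina libraries 17 genes had more than 3 counts.

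Gene by gene, the native lamina lay below the nuclear fraction in both libraries for 136 of 137 genes, beside 35.1% of the genes tested. The PFA lamina did so for 130 genes, beside 32.2%. All 137 genes passed the filter on low counts, through the nuclear group in which they were chosen to be high. By edgeR's quasi-likelihood test with Benjamini-Hochberg adjustment, 42 genes (30.7%) were called lower at the native lamina than in nuclear RNA, where the background is 3.44%, and none was higher, where it is 3.87%. At unadjusted p, 118 genes were under 0.05 in the lower direction and none in the higher. For the PFA lamina 47 genes (34.3%) were lower, beside 7.81%, and none was higher, beside 9.63% and with none at unadjusted p. The median log2 fold change of the set was -2.57 at the native and -2.54 at the PFA lamina, against -0.07 and -0.04 over all genes tested. The nuclear libraries chose the genes, so nothing is read from these counts.

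The numbers called changed widely when 1 library was left out, which leaves its group with 1 library and no spread of its own. Leaving out either nuclear or either native library left 0 genes called at the native lamina, and leaving out PFA replicate 1 or 2 raised the number to 125 or 124. The PFA count was 0 without nuclear replicate 1, 4 without nuclear replicate 2, 8 without PFA replicate 1 and 134 without PFA replicate 2. Against the cytosolic fraction 33 genes (24.1%) were higher at the native lamina, beside 6.99% of all genes, and 2 at the PFA lamina, CAPN3 and DCAF4L1, beside 0.527%. The cytosolic libraries chose the genes too, so nothing is read from these counts. None was lower, beside 6.77% and 0.145%, and the comparisons share their control libraries. Without either cytosolic library 0 genes were higher at either lamina, and none was higher at the PFA lamina without nuclear replicate 1. The native count was 19 and 18 without nuclear replicate 1 and 2, 14 and 5 without native replicate 1 and 2, and 97 and 96 without PFA replicate 1 and 2. The PFA count was 1 without nuclear replicate 2 or PFA replicate 2. Without PFA replicate 1, 106 genes were higher at the PFA lamina than in the cytosol.

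The comparison of the PFA with the native lamina had no library that chose the genes on either side. The filter, the scaling and the estimate of spread still drew on all 8 libraries. In that fit no gene of the 137 was called in either direction, and none of all 16504 was (background 0%). In a fit of only the 4 lamina libraries 81 of the 137 entered, with 0 called in either direction. At unadjusted p under 0.05, 1 gene was higher and 3 were lower, where the background is 5.44% and 5.6%. The smallest adjusted p in the set was 0.377 by edgeR's quasi-likelihood test, and the Wald test of DESeq2 called 0 genes of the set, while it called 73 higher and 150 lower over all genes. The median log2 fold change was 0.01, against 0.06 over all genes, with 70 genes above and 67 below 0. Leaving out PFA replicate 2 moved the median to -2.91, with 13 genes called lower, and leaving out PFA replicate 1 moved it to 1.03 with 0 called. A missing call in this comparison therefore does not show equal levels.

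**Figure D2:**
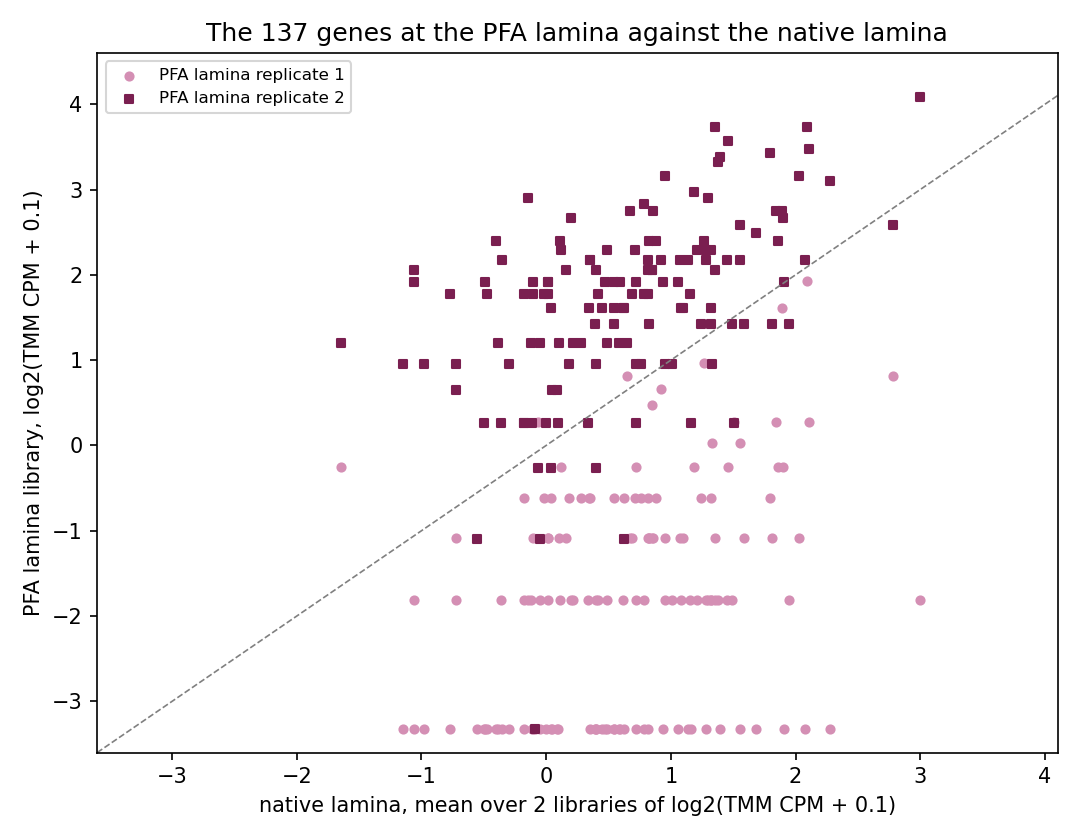
For each of the 137 genes the y axis gives log2 of the TMM-scaled CPM plus 0.1 in PFA lamina replicate 1 (light circles) and replicate 2 (dark squares), against the mean over the 2 native libraries of the same measure. The dashed line marks equal levels, and the light points lie mostly below it and the dark points mostly above.

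The PFA libraries enclosed the native ones for most genes. PFA replicate 1 was below PFA replicate 2 in 134 genes and above it in 2, whereas 50.7% of all genes tested had replicate 1 below replicate 2. PFA replicate 1 was below both native libraries in 127 genes, beside 42.1% of all genes tested, and PFA replicate 2 was above both in 106, beside 40.4%. Both held in 97 genes, beside 14.7%. The PFA pair did not overlap the native pair in 13 genes, 12 of them lower (18.7% of all genes) and 1 higher (19.9%). The 3 lower at unadjusted p were PBOV1 and the transcribed pseudogenes GCNT7 and TMEM14EP. PBOV1 had 38 and 34 counts in the nuclear, 4 and 11 in the native and 0 and 0 in the PFA libraries, and a count of 0 allows up to 3. RAPSN, which clusters acetylcholine receptors at the neuromuscular junction, was the 1 higher, with 31 and 37 nuclear, 3 and 1 native and 4 and 6 PFA counts. These genes other than GCNT7 were picked after their values were seen.

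Levels per length placed short genes first. PYCARD, the adaptor of inflammasomes, had the highest nuclear level per kb of exon at 17.1 CPM per kb, followed by TAS2R3, a bitter taste receptor, at 13.9 and ACRV1, a protein of the sperm acrosome, at 13.2. TYRO3P, a pseudogene of a receptor kinase, followed at 11.8, CHRNG at 11.6 and CRYBA1, a lens crystallin, at 11.6. PYCARD had 59 and 100 nuclear, 0 and 1 cytosolic, 15 and 27 native and 1 and 27 PFA counts. Both native counts lay below both nuclear counts, and the PFA libraries lay on either side of the native ones. Exons of PYCARD overlap those of PYCARD-AS1, and strand was ignored in counting, so its counts may hold RNA of both. TYRO3P lies inside ETFA on the same strand, so unspliced RNA of ETFA cannot be told apart from it.

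Genes were grouped by symbol patterns, and counts called at the native and the PFA lamina are against the nuclear fraction in the lower direction, at the backgrounds above. Of 5 G-protein-coupled receptors, which sense ligands at the cell surface, 3 were called lower at the native and 4 at the PFA lamina. TAS2R3 had 119 and 70 nuclear, 2 and 2 cytosolic, 34 and 11 native and 1 and 8 PFA counts. HTR2B, a serotonin receptor, had 83 and 65 nuclear, 3 and 0 cytosolic, 19 and 7 native and 1 and 8 PFA counts. In both genes every lamina library lay below both nuclear libraries. The group as a whole stood at 19.2% and 9.96% of its nuclear level in the native libraries and at 0.675% and 24.2% in the PFA libraries. HTR2B lies inside PSMD1, GPR171 inside MED12L, GPR21 inside RABGAP1 and TAS2R30 inside PRH1, so 4 of the 5 are enclosed genes.

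Of 7 genes for adhesion and matrix 1 was called at the native and 2 at the PFA lamina. COL6A6, a collagen VI chain, had 175 and 93 nuclear, 3 and 0 cytosolic, 33 and 24 native and 6 and 18 PFA counts. ADAM20, a membrane metalloprotease of the testis, had 67 and 104 nuclear, 0 and 0 cytosolic, 21 and 25 native and 0 and 12 PFA counts. COL8A2, a chain of collagen VIII, was among the highest at the PFA lamina, with 72 and 61 nuclear, 14 and 22 native and 4 and 21 PFA counts. ADAM20 and the pseudogene ADAM20P1 are near copies 38604 bases apart, so their counts are uncertain where reads fit both.

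None of 4 ion channel genes was called at the native and 1 at the PFA lamina. CHRNG and CHRND code for the gamma and delta subunits of the muscle acetylcholine receptor and are neighbours on chromosome 2, 3061 bases apart on the same strand. CHRNG had 169 and 143 nuclear, 3 and 1 cytosolic, 25 and 58 native and 0 and 23 PFA counts. CHRND had 52 and 84 nuclear, 2 and 0 cytosolic, 21 and 30 native and 0 and 15 PFA counts. Both were lower in PFA replicate 1 than in either native library.

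CAPN3, a protease of muscle, was among the genes that reached the lamina furthest, with 67 and 44 nuclear, 2 and 1 cytosolic, 37 and 23 native and 16 and 18 PFA counts. It was 1 of 6 genes whose mean of the PFA libraries was above 50% of the nuclear level, with DCAF4L1, FAM238C, CCDC162P, TFAP2E and GRASP. DCAF4L1 had 70 and 46 nuclear, 0 and 1 cytosolic, 42 and 27 native and 20 and 36 PFA counts, so its PFA libraries stood at 39.3% and 141% of the nuclear mean. In these 6 genes PFA replicate 1 stood at 1.19% to 39.3% and replicate 2 at 73.6% to 141%, so each rests on replicate 2. At the native lamina 5 genes passed 50%, namely CCDC162P, FAM106A, FAM238C, FAM229A and TNFRSF13C, each by its mean and none but CCDC162P in both libraries. CCDC162P, a transcribed pseudogene, had 50 and 32 nuclear, 2 and 1 cytosolic, 81 and 37 native and 9 and 16 PFA counts. Its native libraries stood at 127% and 82.1% of the nuclear mean, so it was above that mean in replicate 1 and below it in replicate 2. FAM238C, a long noncoding RNA, had 112 and 80 nuclear, 94 and 43 native and 1 and 46 PFA counts, with PFA replicate 2 at 109% of the nuclear mean and replicate 1 at 1.19%. DCAF4L1, CCDC162P, GRASP, FAM229A and TNFRSF13C were picked after their values were seen.

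Of 6 immune cell receptors 2 were called at the native and 1 at the PFA lamina. IL21R, the interleukin 21 receptor, had 69 and 46 nuclear, 0 and 0 cytosolic, 10 and 4 native and 3 and 9 PFA counts. LILRB3, an inhibitory receptor of myeloid cells, had 71 and 88 nuclear, 0 and 0 cytosolic, 17 and 13 native and 2 and 24 PFA counts. Reads of LILRB3 may be shared with its near copies, and its exons overlap those of LILRA6. Both receptors were lower in all 4 lamina libraries than in either nuclear library. The blood cell genes PTPRC and CD3E were at 0 throughout, as stated above.

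The 2 transcription factors were TFAP2E and SOX10. TFAP2E had 39 and 39 nuclear, 2 and 0 cytosolic, 25 and 21 native and 5 and 16 PFA counts, and was not called. SOX10, a regulator of neural crest and glia, had 39 and 49 nuclear, 0 and 0 cytosolic, 8 and 10 native and 3 and 6 PFA counts, and was called lower in both. CYP19A1, the aromatase that makes estrogens, and CYP2W1 formed the group of drug and steroid enzymes, with 0 calls. CYP19A1 had 105 and 38 nuclear, 0 and 0 cytosolic, 15 and 6 native and 0 and 12 PFA counts. Of 4 proteases and inhibitors 1 was called in each comparison, and of the cilium gene RSPH9 and the 2 cytoskeletal genes SPTBN5 and MYLK2 none was. The patterns for secreted ligands and germ line matched no gene.

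Most genes fell in no role group. Of 19 with uncharacterised or family-numbered symbols 7 were called in each comparison, and of the remaining 85, 27 at the native and 30 at the PFA lamina. C9orf84 (now SHOC1, a meiosis gene, hg19 chr9:114448799-114557288) had the smallest adjusted p of the set at both laminae, with 98 and 91 nuclear, 2 and 2 cytosolic, 10 and 7 native and 3 and 5 PFA counts. Its log2 fold change was -3.87 ± 0.60 (SE) at the native and -3.84 ± 0.66 (SE) at the PFA lamina. UNC13D, which primes lytic granules for release, had 143 and 195 nuclear, 1 and 3 cytosolic, 15 and 26 native and 2 and 36 PFA counts. EPHX3, an epoxide hydrolase, had 77 and 67 nuclear, 3 and 0 cytosolic, 7 and 6 native and 1 and 20 PFA counts. GCNT7 went the other way, with 64 and 73 nuclear, 27 and 11 native and 0 and 3 PFA counts. B3GALT2, a galactosyltransferase, had 114 and 124 nuclear, 0 and 2 cytosolic, 25 and 22 native and 2 and 7 PFA counts. In UNC13D and EPHX3 PFA replicate 2 exceeded both native libraries, while in GCNT7 and B3GALT2 both PFA libraries were below both native ones. For B3GALT2 PFA replicate 2, with 7 counts, was nearly level with native replicate 1 after scaling, so that order is uncertain.

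The place of the genes in the annotation was also read, since the rule did not use it. Of the 137, 40 (29.2%) lay wholly inside the span of another gene, beside 4.70% of the 10885 eligible genes with at least 30 counts in both nuclear libraries and 6.06% of all 18372 eligible genes. In 28 (20.4%) the larger gene was on the opposite strand, beside 2.02% and 2.92%, and in 12 on the same strand. Single-exon genes made up 15.3%, beside 2.89% and 7.02%. Of the 117 protein-coding genes alone, 9 (7.69%) had a single exon and 29 (24.8%) lay inside another gene. A gene with a mean of at least 100 nuclear counts ended within 10000 bases upstream on the same strand in 27 (19.7%), beside 12.5% and 9.24%. Either that or an enclosing gene of any level was found for 64 (46.7%), beside 16.5% and 14.8%. Exons of another gene overlapped in 18 (13.1%), fewer than the 24.2% and 20.01% elsewhere. These shares were not tested.

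**Figure D3:**
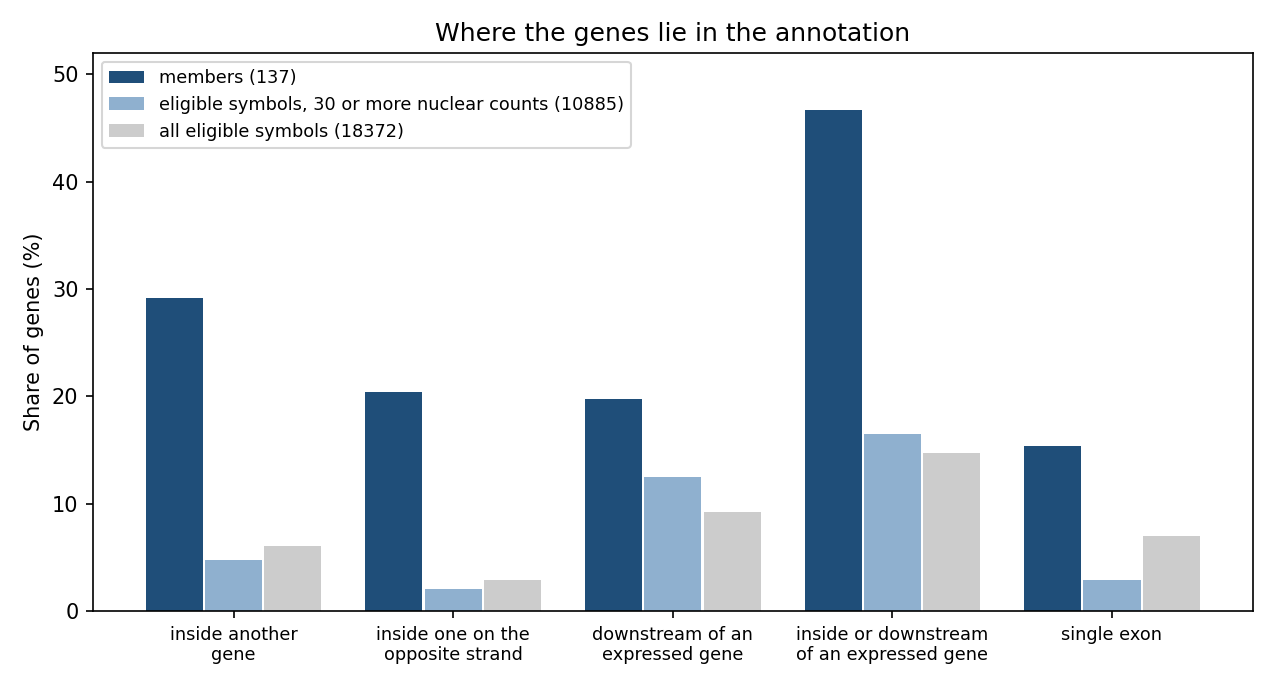
Bars give the share of genes, in percent, with each arrangement in the hg19 RefFlat annotation, for the 137 genes, the 10885 eligible genes with at least 30 counts in both nuclear libraries and all 18372 eligible genes. The 29.2% of the set inside another gene stand against 4.70% and 6.06%.

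The position matters for what a count means. The authors counted without regard to strand and credited a read to every gene it overlapped. RNA of an enclosed gene, unspliced RNA of the gene around it and RNA running past the end of an upstream gene therefore cannot be told apart in these values. In 37 of the 40 enclosed genes no exon overlapped an exon of another gene, so RNA spliced as annotated for the larger gene adds no counts there. The nuclear level per kb of exon exceeded that of the enclosing gene in 5 of 40.

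None of the 37 enclosing genes met the cytosolic limit that chose the genes within them. All 37 had more than 3 counts in both cytosolic libraries. Summed, they stood at 126% ± 5.09 (SD, n = 2) of their nuclear level at the native lamina, 110% ± 2.50 (SD, n = 2) at the PFA lamina and 134% in the cytosol. The range over the 37 at the native lamina was 47.7% to 224%. In the cytosol it was 23.2% to 334%, with 31 genes above 50% and 22 above 100%, so some enclosing genes were mostly nuclear. The percentage at the native lamina was lower for the enclosed gene in 40 of 40 pairs, although the choice of genes on nuclear counts leans that way. The 2 PFA libraries, far apart for the enclosed genes at 1.46% and 27.9%, were close for the enclosing ones at 112% and 109%.

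**Figure D4:**
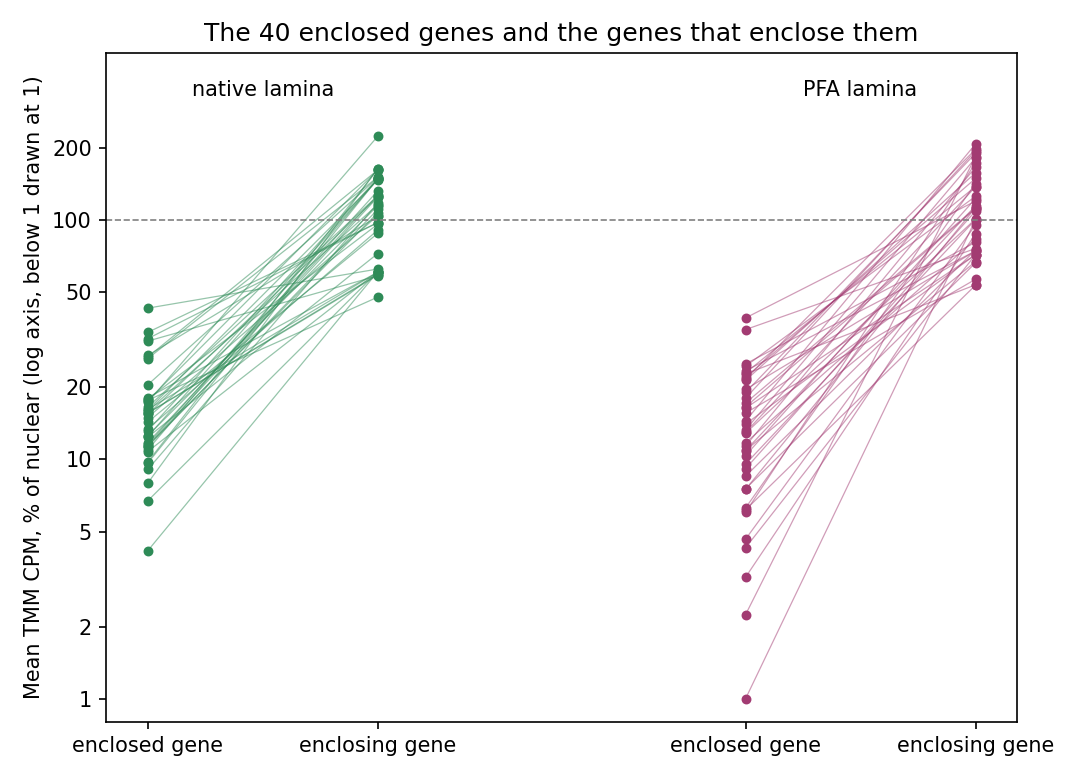
Lines join each of the 40 enclosed genes to the gene around it. The y axis is the mean level of 2 libraries in percent of the nuclear mean, on a log axis with values below 1 drawn at 1, for the native lamina (left) and the PFA lamina (right). Every line rises, and the enclosing genes at the native lamina run from 47.7% to 224%.

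CENPP is an example on chromosome 9, with 3 genes of the set inside it on the opposite strand. OMD (hg19 chr9:95176527-95186836) and ASPN (chr9:95218489-95244844) code for small proteoglycans of bone and cartilage, and ECM2 (chr9:95255829-95298374) lies beside them. OMD had 104 and 43 nuclear, 2 and 2 cytosolic, 8 and 1 native and 1 and 10 PFA counts. ASPN had 115 and 46 nuclear, 1 and 2 cytosolic, 11 and 4 native and 0 and 3 PFA counts. ECM2 had 113 and 50 nuclear, 0 and 0 cytosolic, 13 and 10 native and 0 and 10 PFA counts. All 3 were higher in nuclear replicate 1 than in replicate 2. CENPP itself had 182 and 137 nuclear, 169 and 77 cytosolic, 155 and 105 native and 106 and 48 PFA counts, so it was present in every fraction. The 3 genes were picked for their shared enclosing gene after values were seen and are not independent of each other.

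Other enclosed genes came as families. ANGPT2, a ligand of the endothelial TIE2 receptor, and the related secreted proteins ANGPTL1 and ANGPTL7 lie on the opposite strand inside larger genes, which are MCPH1, RALGPS2 and MTOR. ANGPT2 had 90 and 64 nuclear, 0 and 0 cytosolic, 11 and 15 native and 3 and 5 PFA counts. ANGPTL1 had 57 and 34 nuclear, 0 and 0 cytosolic, 13 and 4 native and 0 and 3 PFA counts. These 3 genes stood at 7.97% to 13.4% of their nuclear level at the native lamina. Genes named as intronic transcripts lie on the same strand as the gene around them, namely AGPAT4-IT1, SND1-IT1, MAGI1-IT1 and ASAP1-IT1. AGPAT4-IT1 had 76 and 44 nuclear, 2 and 0 cytosolic, 46 and 24 native and 0 and 12 PFA counts, or 42.9% of nuclear at the native lamina, and the other 3 stood at 9.77% to 14.3%. Both families were picked after their values were seen.

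ACTL10 (hg19 chr20:32254304-32256331), whose promoter is shown above, had 56 and 121 nuclear, 2 and 0 cytosolic, 19 and 22 native and 0 and 28 PFA counts. NECAB3 around it had 210 and 252 nuclear, 81 and 88 cytosolic, 180 and 119 native and 124 and 95 PFA counts. NECAB3 was thus present in the cytosol, at 38.7% of its nuclear level, where ACTL10 was at or near 0. CDC73, which encloses B3GALT2, had 420 and 304 nuclear and 408 and 283 cytosolic counts, against at most 2 cytosolic counts of B3GALT2.

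The native and PFA values were also read apart for enclosed and other genes. The 40 enclosed genes stood at 16.6% and 16.2% of their nuclear level, and the 97 others at 17.0% and 21.6%, so replicate 1 differed little and replicate 2 more. In the PFA libraries the enclosed genes stood at 1.46% and 27.9% and the others at 4.40% and 44.3%, lower in each library for the enclosed. Protein-coding genes stood at 16.9% ± 3.32 (SD, n = 2) at the native lamina. The 11 pseudogenes stood at 29.4% ± 5.75 (SD, n = 2), or 23.5% without CCDC162P, and the 9 long noncoding RNAs at 29.5% ± 4.22 (SD, n = 2), or 24.5% without FAM238C. These are summed levels. The median gene stood at 16.3% among the protein-coding genes, 19.8% among the pseudogenes and 16.2% among the long noncoding RNAs.

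Genes of other symbol classes that met the same count, length and chromosome limits were read in the same way. The 27 with LINC or LOC symbols reached 22.3% and 21.9% in the native libraries, the 21 with antisense symbols 15.4% and 21.3%, and the 7 solute carriers 16.4% and 22.6%. The means of the 3 classes ran from 18.4% to 22.1%, beside 18.5% for the 137 genes. In the PFA libraries the 3 classes stood at 1.01% to 3.50% in replicate 1 and 33.6% to 38.5% in replicate 2, the same kind of split as the 3.58% and 39.7% of the 137. The differences between classes were not tested.

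**Figure D5:**
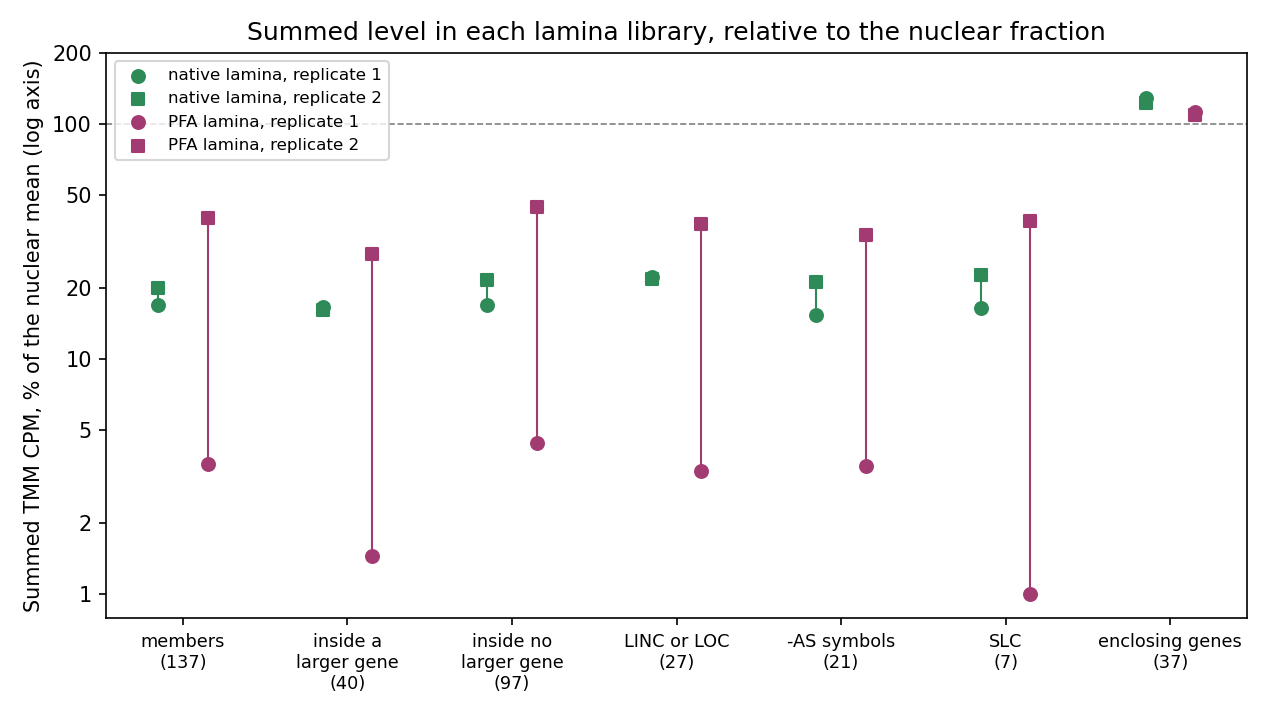
The y axis is the summed TMM-scaled CPM of a gene set in 1 library, in percent of its nuclear mean, on a log axis with the dashed line at 100%. Circles and squares are replicates 1 and 2 of the native (green) and PFA (purple) lamina, and every set but the enclosing genes shows PFA values far apart on either side of the native ones.

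Lamina-associated domains held few genes of the set or of its background. Only GLRA1, a glycine receptor subunit, had at least 50% of its span inside a domain of HCT116 in any stage, which was 0.730% of the set (95% Wilson interval 0.129 to 4.02). The share was 2.01% of the 10885 eligible genes with at least 30 counts in both nuclear libraries and 6.16% of all eligible genes. The interval of the set includes the 2.01%. The span of GLRA1 was inside a domain in S and G2 and not in G1. GLRA1 had 53 and 50 nuclear, 0 and 0 cytosolic, 11 and 10 native and 1 and 6 PFA counts, which is 15.5% of its nuclear level at the native lamina. The domains come from another cell line and have no replicate spread.

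The limits of the rule passed through a continuum of counts. Just inside were DSCR9, with 39 and 30 nuclear counts, KCNA7 with 48 and 30 and FAM106A with 60 and 30. Just outside were C21orf62 with 70 and 29, C17orf74 with 29 and 49 and TGM1 with 29 and 47. On the cytosolic side 30 members had a highest count of 3, and 59 genes that met the other limits had a highest count of 4. When genes were chosen on replicate 1 alone, 260 qualified, and nuclear replicate 2 had at least 30 counts in 165 of them and cytosolic replicate 2 at most 3 in 221 (85%). The median of the 260 was 36 counts in nuclear and 1 in cytosolic replicate 2, and the highest cytosolic count was 12, in MFSD7.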

How the data were processed

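RNA was measured in 8 HEK293FT libraries in 4 groups of 2. The authors' deposited values are raw read counts per gene symbol, made with featureCounts 1.5.2 on hg19 and RefFlat with strand ignored and multi-overlapping reads counted for each gene, per the file headers. The submitters' processing notes also name TopHat2 2.1.1 and Bowtie2 2.3.2. For cytosolic replicate 1 the header's output name points to nuclear replicate 1 and its input to cytosolic replicate 1; it was kept as labelled. The deposited HCT116 domain lists are intervals without scores.

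Genes left by filterByExpr (16504) entered the quasi-likelihood test of edgeR 4.0.16 (R 4.3.3), scaled by TMM and fitted over the 8 libraries together without a block. Adjustment was by Benjamini-Hochberg, with calls at 0.05. CPM are after TMM scaling, and a count of 3 or fewer was the floor. The fit was tested on simulated data. An enclosing gene is the one with the most nuclear counts whose span, of at most 2500000 bases, covers the gene. Biotypes are from RefSeq, which held all 137 symbols, 8 under current names.

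The genes, the role groups and the rule for named genes were chosen with earlier results of these data known. Named genes were, among the 57 members with at least 50 counts in both nuclear libraries, the 5 highest and 5 lowest log2 fold changes in each of 3 comparisons. To these were added the 6 highest nuclear CPM per kb, the 2 highest per role group and 3 genes on either side of the nuclear limit, 42 members in all; any other was chosen after its values were seen. The settings varied were DESeq2 1.42.0 (size factors, Wald test), total counts, upper-quartile factors, no filter, a replicate block, fewer libraries or members, and other limits of the rule. Samples of K562 DNA, whose labels disagree, were not analysed here.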

Additional observations from a re-analysis of the deposited data

How the results depend on the processing

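Low counts limit single genes in the lamina libraries, where 48 genes had 0 counts in PFA replicate 1. The direction of the medians against either fraction held under every alternative run, and the numbers called did not. With the replicate block the numbers called were 63 (native below nuclear), 68 (PFA below nuclear), 41 (native above cytosolic), 3 (PFA above cytosolic) and 0 in each direction for PFA against native, and the samples share only a number. Deviations of replicate 1 from replicate 2 correlated across 16504 genes at -0.067 to 0.321 between groups.

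Native below nuclear, called for 42, gave 19 with total counts, 118 with no filter, 129 in a fit of only the 4 libraries, 25 among genes inside no other, and 0 to 125 with 1 library left out. PFA below nuclear, called for 47, gave 26, 110, 13, 24 and 0 to 134. Native above cytosolic, called for 33, gave 91 with no filter, 55 with only 4 libraries and 0 to 97 with 1 left out. PFA above cytosolic, called for 2, gave 1 with DESeq2 size factors, 64 with no filter, 29 by the Wald test, 1 with only 4 libraries and 0 to 106 with 1 left out. PFA against native gave 0 higher and 0 to 13 lower with 1 library left out. No cause of these shifts was tested, except that fewer genes or libraries enter some fits.

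Total counts moved the median log2 fold change of native against nuclear to -2.30 and upper quartiles to -2.73, while the median of all genes moved by 0.285 and -0.148. Native against cytosolic became 3.50 with total counts and 3.81 with only 4 libraries. With 1 library left out the medians ran from -2.71 to -2.49 (native against nuclear), -5.52 to -1.45 (PFA against nuclear), 3.18 to 5.03 (native against cytosolic), 0.15 to 4.33 (PFA against cytosolic) and -2.91 to 1.03 (PFA against native).

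The native sum, 18.5% of nuclear, became 22.5% with total-count CPM, 15.98% with at most 1 cytosolic count and 22.1% when chosen on replicate 1, and 16.9% to 20.1% with 1 library left out. The PFA sum ran from 3.58% to 39.7%. Genes above 3 counts in both native libraries, 126 of 137, became 69 at 10 counts or more, 49.97 expected after thinning, 214 of 255 and 56 of 57 with nuclear limits of 20 and 50, 43 of 49 with at most 1 cytosolic count, 218 of 260 when chosen on replicate 1 and 128 to 134 in 1 library. For the PFA lamina, 18 became 89 above 0 counts, 3 at 10 or more, 4.91 expected after thinning, 42 and 7 with the nuclear limits, 3 with at most 1 cytosolic count, 47 when chosen on replicate 1 (of the same totals) and 20 to 119 in 1 library. The share in domains was 0% when all 3 stages were required. The pseudogenes and long noncoding RNAs at the native lamina fell to 23.5% and 24.5% without CCDC162P and FAM238C, a choice made after seeing the data. SH3GL1P1, at 0.04 in PFA against native, was -3.38 without PFA replicate 2 (edgeR adjusted p = 0.0444) and 1.11 without PFA replicate 1.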
